A study of Mus musculus with 11 samples.

Results

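Genes of the voltage-gated and potassium ion channel families were followed in pooled mouse hearts of embryonic day 9.5. The set held every gene whose single annotated symbol began with Kcn (potassium channels), with Cacna, Cacnb or Cacng (voltage-gated calcium channels) or with Scn and a digit (sodium channels), together with the HCN pacemaker genes, and each gene was represented by the probe set with the highest mean log2 value over all arrays. It came to 121 of the 18193 genes on the array, measured by 254 probe sets, and 49 of the 121 genes had a single probe set. Of these, 118 encode channel subunits and 3 are non-coding transcripts named after a channel gene (Kcnq1ot1, Kcnmb4os1 and Kcnmb4os2).

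RNA was measured on 11 one-colour oligonucleotide arrays, 1 per pool of hearts. The CKO (conditional knockout) label stands for 5 arrays from Gata4 flox/flox embryos that also carried Nkx2-5 cre/+, the double heterozygous group for 3 arrays from Gata4 flox/+ embryos with Nkx2-5 cre/+, and the control group for 3 arrays from Gata4 flox/+ embryos with Nkx2-5 +/+. All 3 groups therefore carried at least 1 floxed Gata4 allele, and Cre, placed at the Nkx2-5 locus, acts where Nkx2-5 is expressed and also removes 1 working copy of Nkx2-5 from both Cre-carrying groups. The labels do not say whether pools came from separate litters, so p-values measure the spread between these arrays, which may be technical. Gata4, a zinc-finger factor required for heart formation, showed no loss in the arrays that carry the CKO label: its signal averaged 9.43 ± 0.11 in CKO-labelled, 9.31 ± 0.10 in double heterozygous and 8.98 ± 0.19 in control arrays (log2 units, SD, n = 5, 3 and 3). It was higher by 0.45 than in controls (limma, adjusted p = 0.0321), a call lost without any 1 control array, double heterozygous replicate 1 or 3, or CKO replicate 5 (0.34 to 0.51). No source used here says whether its probes lie in the floxed segment. The signal therefore does not check the labels, and the arrays are called CKO-labelled throughout. Nkx2-5 averaged 9.34 ± 0.34 in CKO-labelled, 9.48 ± 0.10 in double heterozygous and 9.87 ± 0.06 in control arrays (CKO-labelled minus control -0.53, adjusted p = 0.0990).

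Ion channels set the resting potential, the upstroke and the repolarisation of heart cells. Pore-forming alpha subunits carry the current, while auxiliary subunits control trafficking and gating; in cardiomyocytes, calcium channels of the L-type and T-type admit the calcium that starts contraction, sodium channels carry the fast upstroke, potassium channels repolarise the membrane, and HCN channels carry the pacemaker current. The embryonic heart tube already beats at this stage, and GATA factors bind DNA words built around the letters GATA.

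The 250 bases before the start of 3 of the 4 genes called between CKO-labelled and control arrays, Scn7a, Cacna2d2 and Kcnq1ot1 but not Kcnk3, are shown because the altered factor binds such words. They are RefSeq sequences of build GRCm38.p6, read 5′ to 3′ on the gene's own strand. Kcnk3 is not shown because it had no entry among the promoter sequences used. Capitals mark a word on either strand that is AGATAA, or differs from it as AGATAG does at the end, as TGATAA does at the start, or as TGATAG does at both ends. All 4 words searched contain GATA. Scn7a lies at chr2:66784911-66785160 on the minus strand, Cacna2d2 at chr9:107399630-107399879 on the plus strand, and Kcnq1ot1 at chr7:143296548-143296797 on the minus strand.
Scn7a: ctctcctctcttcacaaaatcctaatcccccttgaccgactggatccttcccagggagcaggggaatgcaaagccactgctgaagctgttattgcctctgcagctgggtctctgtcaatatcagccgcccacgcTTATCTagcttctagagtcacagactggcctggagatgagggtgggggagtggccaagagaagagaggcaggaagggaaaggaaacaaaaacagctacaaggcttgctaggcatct
Cacna2d2: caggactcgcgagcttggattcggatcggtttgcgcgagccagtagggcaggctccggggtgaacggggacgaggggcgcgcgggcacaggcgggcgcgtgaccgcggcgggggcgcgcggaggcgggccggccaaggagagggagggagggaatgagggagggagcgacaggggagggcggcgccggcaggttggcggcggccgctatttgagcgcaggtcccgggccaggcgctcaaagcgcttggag
Kcnq1ot1: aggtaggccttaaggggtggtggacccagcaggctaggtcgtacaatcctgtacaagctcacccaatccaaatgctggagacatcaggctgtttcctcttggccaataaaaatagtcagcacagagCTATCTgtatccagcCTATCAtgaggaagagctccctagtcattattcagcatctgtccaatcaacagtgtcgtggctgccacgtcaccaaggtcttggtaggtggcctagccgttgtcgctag
The Scn7a window held 1 word, TTATCT, starting at position -116 from the transcription start, the Kcnq1ot1 window held 2, CTATCT at -124 and another, CTATCA, at -109, and the Cacna2d2 window held 0. Of the 127 windows that matched 92 of the channel genes, 24 (18.9%) held at least 1 word, against 8718 of all 32851 windows of the same length (26.5%). A match describes letters, not a bound site. Such windows cannot show distant enhancers.

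The first question was which of these genes could be seen at all in control heart. Values are log2 of the intensity plus 16 after quantile normalisation, and a gene counted as above background when all 3 control arrays exceeded the 95th percentile, on that array, of 74 odorant, vomeronasal and taste receptor genes, which stand in for genes not transcribed in heart. These limits ran from 5.32 to 5.59 log2 units on the control arrays. By this measure 38 of 121 channel genes (31.4%) were above background, against 10378 of all 18193 genes (57.0%). Of the sensory receptor genes themselves, 3 of 74 (4.05%) passed. Because probe sets differ in brightness, the limit only sorts genes into seen and not clearly seen, and ranks nothing.

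**Figure D1:**
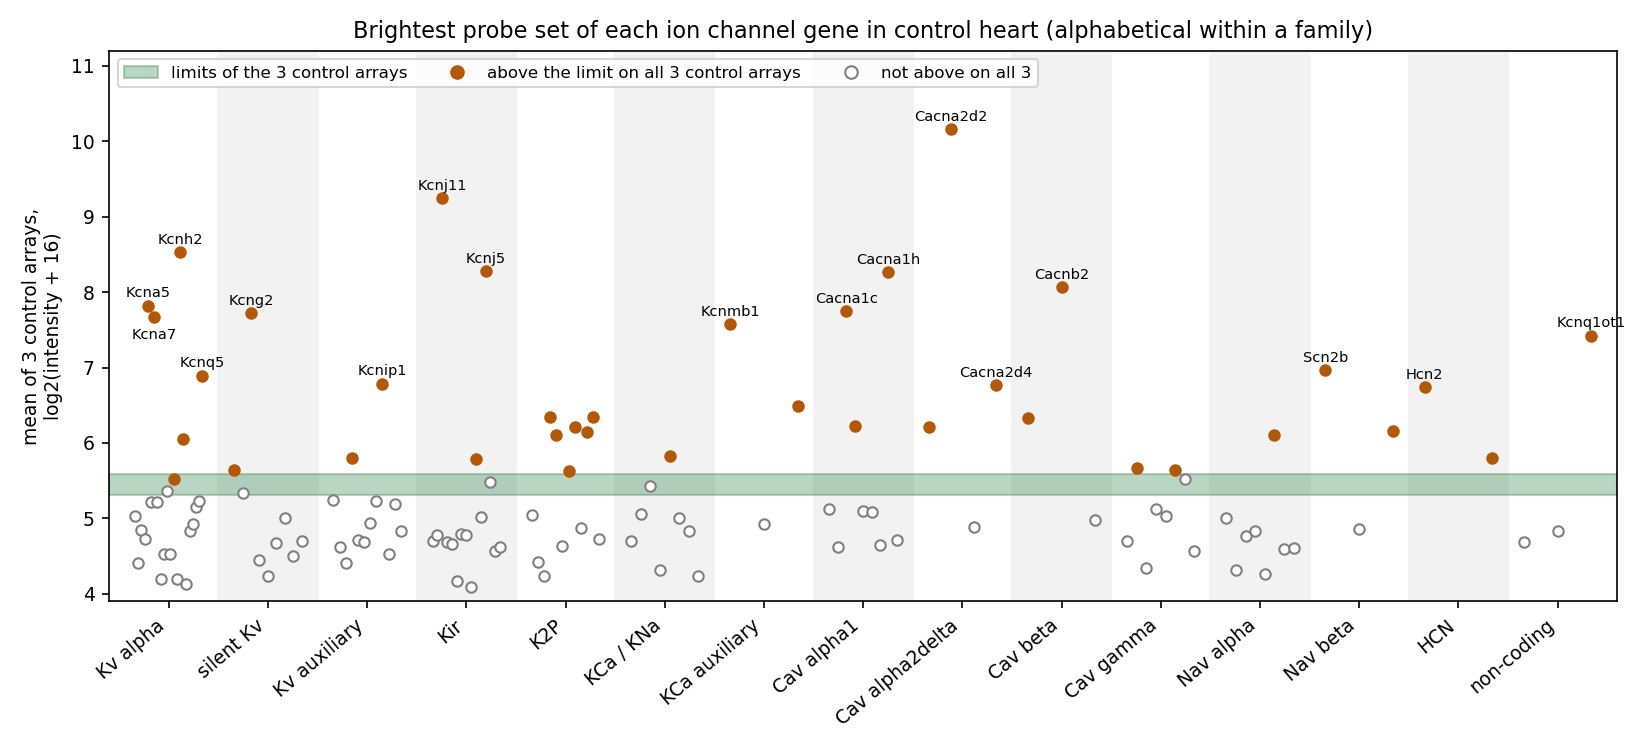
Mean of the 3 control arrays for each of the 121 genes, in log2(intensity + 16), by family on the x axis and in alphabetical order within a family. Filled points are the 38 genes above the limit on all 3 control arrays, open points the others, and the green band spans the control limits, 5.32 to 5.59.

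Among calcium channel genes, 3 of 9 alpha1 pore genes were above background: Cacna1c, the main ventricular L-type pore, Cacna1d, the L-type pore of pacemaker and atrial cells, and Cacna1h, a T-type pore. Their auxiliary subunits added 3 of 4 alpha2delta genes (Cacna2d1, Cacna2d2 and Cacna2d4), 2 of 3 beta genes (Cacnb1 and Cacnb2) and 2 of 8 gamma genes (Cacng2 and Cacng6). Cacna1g, the other T-type pore known from heart, averaged 4.65 in controls and did not pass. Both measured pacemaker genes, Hcn2 and Hcn3, passed. Of 8 sodium channel alpha genes only Scn7a passed, with 2 of 3 beta genes, Scn2b and Scn4b.

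Potassium channel genes were taken next. Of 22 Kv alpha genes, 6 were above background, including Kcnh2, which carries the rapid delayed rectifier current, Kcna5, which carries the ultrarapid one in atrium, Kcnd3, which carries transient outward current, and Kcna7, Kcnh3 and Kcnq5. Of 9 silent Kv genes, whose products modify other Kv pores, Kcng2 and Kcnf1 passed, and of 12 Kv auxiliary genes Kcne1 and Kcnip1 did. The inward rectifiers gave 3 of 15: Kcnj11, the pore of ATP-sensitive channels, and Kcnj3 and Kcnj5, which together form the acetylcholine-gated channel of atrium. The 2-pore background channels gave 6 of 12 (Kcnk2, Kcnk3, Kcnk5, Kcnk6, Kcnk13 and Kcnk15). Of the calcium-activated and sodium-activated pores 1 of 8 passed, Kcnn4, with 2 of 3 of their auxiliary subunits, Kcnmb1 and Kcnmb4, and 1 of the 3 non-coding genes, Kcnq1ot1.

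Several genes central to the adult heartbeat were not above this limit. Kcnj2, the main pore of the ventricular inward rectifier current, averaged 4.41 in CKO-labelled, 4.43 in double heterozygous and 4.10 in control arrays. Kcnq1, the slow delayed rectifier pore, averaged 5.03 in CKO-labelled, 5.18 in double heterozygous and 5.16 in control arrays. Kcnd2, a transient outward pore, averaged 4.73 in CKO-labelled, 4.56 in double heterozygous and 4.53 in control arrays. Kcnj8, Kcnj12, Kcna4, Kcnip2, Kcnn2 and Scn3b also stayed below. Of 27 measured genes on a list of cardiac channel genes, 17 passed. The genes nearest the limit were Kcnd3, above by 0.01 on its lowest control array, Cacng6 by 0.03 and Kcne1 by 0.04, against margins of -0.03 for Kcnn2 and -0.11 for Kcnd1 just outside. A limit at the 99th percentile left 23 genes and the mean of each gene's probe sets 25, while 18 genes passed under every one of 13 settings.

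Each array was also set against its own limit. Channel genes above the limit on every array of a group numbered 26 in CKO-labelled, 31 in double heterozygous and 38 in control arrays, and 24 were above on all 11 arrays. These counts cover 5, 3 and 3 arrays, and more arrays make the condition harder to meet. CKO replicate 3 also had the highest limit of all arrays, 5.79. Cacng7, a gamma-type gene, was above on all CKO-labelled arrays and not on all controls. The reverse held for 13 genes, among them Scn7a, Cacna1d, Kcnj3, Kcnk2, Kcnk6, Kcnmb4 and Scn4b. The same counts were not made over all genes, so they cannot show a loss particular to channel genes. At the other end, 63 genes were above the limit on no array.

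CKO-labelled against control arrays addressed what the combined genotype did to channel expression. Across the 121 genes, 3 were higher and 1 was lower at an adjusted p under 0.05 (limma, Benjamini-Hochberg over all 45037 probe sets). The same test called 1.25% of all genes higher and 0.841% lower. The higher genes were Cacna2d2, Kcnk3 and Kcnq1ot1, and the lower gene was Scn7a. In all, 63 channel genes had a higher and 58 a lower mean in CKO-labelled arrays, with a median difference of 0.02 against -0.02 over all genes. Of all 18193 genes 8510 had a higher mean. Within the 38 channel genes above background, 20 were higher and 18 lower, from -0.95 to 0.98, with a median of 0.03. Of all 10378 genes above background 4366 were higher, with a median of -0.04. Of the 38 channel genes, 15 were higher on the scale as deposited and 14 with median centring. In whole-heart RNA, fewer cells of a type and less RNA per cell cannot be told apart. The count of 4 fell to 1 without any 1 control array or without CKO replicate 5, and to 2 without any 1 double heterozygous array or CKO replicate 4; it was 0 on the scale as deposited, and with median centring the 1 call was Scn7a, lower.

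**Figure D2:**
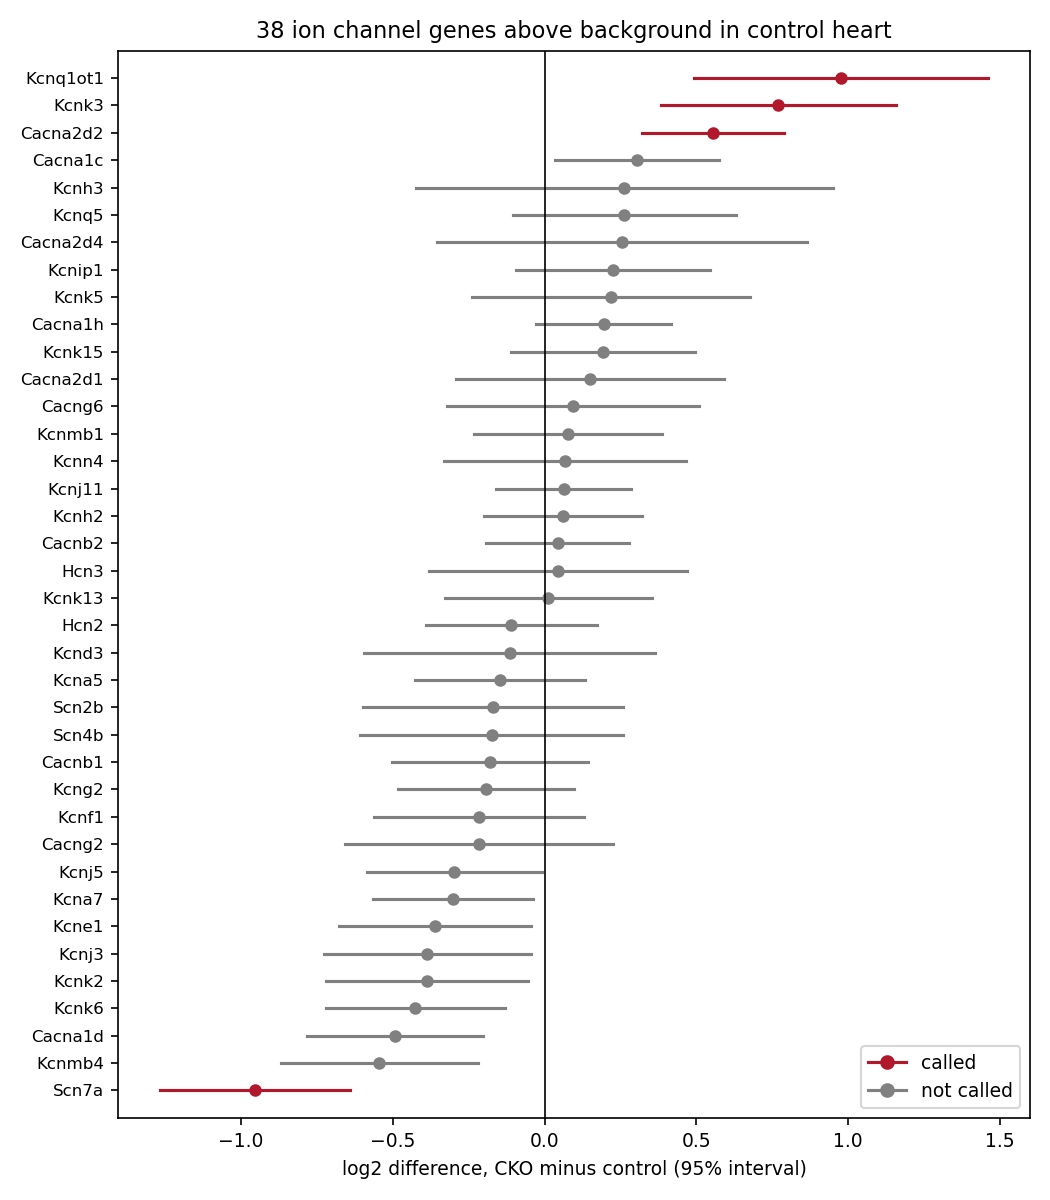
Difference in log2 signal, CKO-labelled minus control, for the 38 genes above background in control heart, with 95% intervals from limma. The 4 called genes are in red, from Kcnq1ot1 at 0.98 to Scn7a at -0.95.

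Scn7a was the channel gene with the lowest adjusted p. It encodes Nax, a relative of the voltage-gated sodium channels known in the brain as a sensor of extracellular sodium. Its signal was 5.09, 5.30, 4.82, 5.21 and 5.32 in CKO-labelled arrays, 5.55, 5.75 and 5.72 in double heterozygous arrays, and 6.10, 6.04 and 6.16 in control arrays. The 3 groups did not overlap, and the double heterozygous arrays lay between the others. The difference of CKO-labelled minus control was -0.95 (SE 0.147, limma adjusted p = 0.00401). CKO-labelled minus double heterozygous gave -0.52 (adjusted p = 0.166). Only 3 of 5 CKO-labelled and 2 of 3 double heterozygous arrays exceeded their own background limit, so the signal fell to about the limit and the size of the fall depends on the constant added before the log, from -1.41 with 1 to -0.48 with 64. All 3 Scn7a probe sets were lower in CKO-labelled arrays, though the other 2 were not above background in controls. The call was lost on the scale as deposited (adjusted p = 0.0547).

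Other cell types that could carry Scn7a, such as neurons and glia, were looked at through marker lists. Of 10 neural markers 3 were above background in control heart, and Elavl4, Stmn2, Dcx, Snap25, Nefm, Sox2 and Pax6 were not. Their summed signal was 188 to 271 in CKO-labelled, 246 to 256 in double heterozygous and 249 to 263 in control arrays (linear intensity units), and 1 of the 10, the neurofilament gene Nefl, was called lower (-0.77, adjusted p = 0.0381). Of 5 measured neural crest and glial markers 2 were above background, not including Sox10, Foxd3 or Ngfr. Sums over the 5 were 369 to 887 in CKO-labelled, 281 to 403 in double heterozygous and 365 to 429 in control arrays. The high end of the CKO-labelled range came from replicate 5, where Tfap2a was 9.23, against 6.52 to 7.75 on the other CKO-labelled arrays. Sox2, of the neural list, was 6.13 on CKO replicate 5 and at most 4.25 on the other CKO-labelled arrays. Whether CKO replicate 5 held more of such cells was not tested. The proepicardial list had a median difference of -0.95, with Tcf21 (-1.31) and Lrrn4 (-1.20) called lower and Krt19 (1.59) called higher among its 8 genes, all above background; its sums were 1778 to 2396 in CKO-labelled, 1105 to 1420 in double heterozygous and 1598 to 1821 in control arrays. Krt19, the brightest of these 8 genes, weighs most in the sums, at 10.3 to 10.6 in CKO-labelled and 8.71 to 9.09 in control arrays. Only 2 of the 8 had a higher mean in CKO-labelled than in control arrays. The part of all these cell types in the Scn7a result was not tested.

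**Figure D3:**
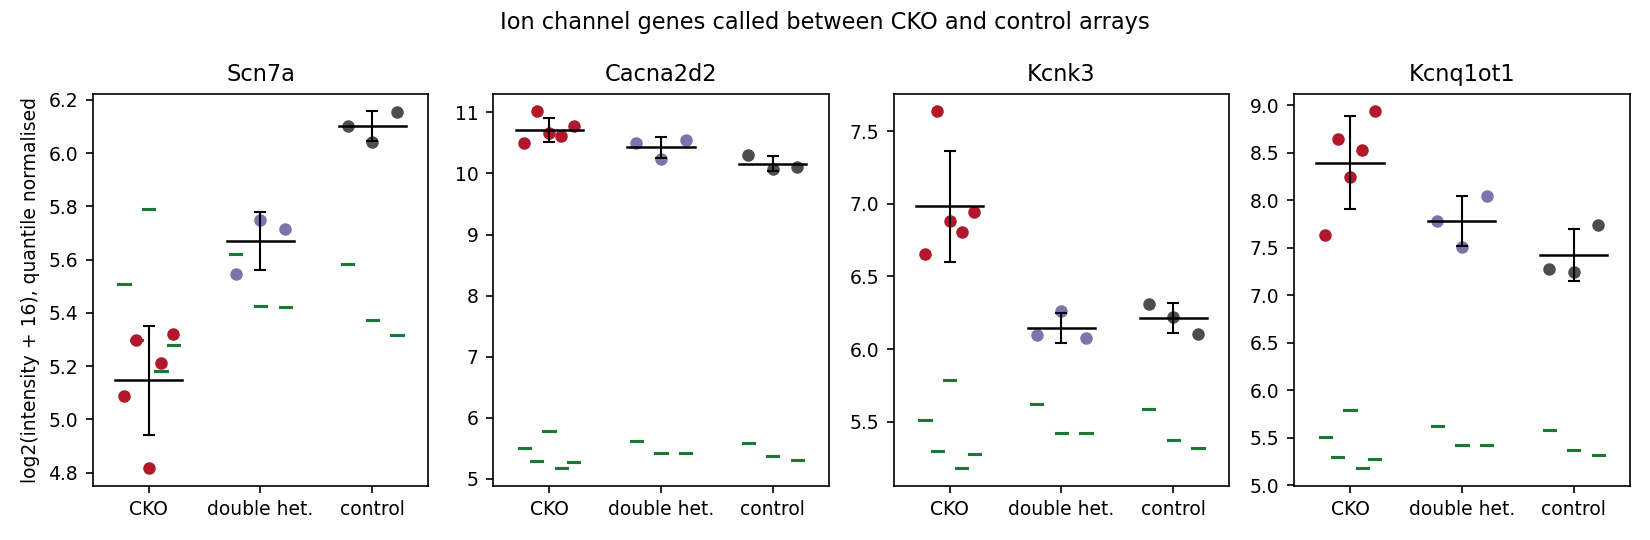
Signal of the 4 called genes on each array in log2(intensity + 16), with group means and SD as black bars, CKO-labelled left, double heterozygous centre and control right. Green ticks are each array's background limit, and Scn7a lies near them in CKO-labelled arrays while the other 3 genes lie above them on all 11 arrays.

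Cacna2d2 encodes the alpha2delta-2 subunit, which brings high-voltage-activated calcium channels to the membrane and binds gabapentin. Its signal was 10.49, 11.02, 10.66, 10.61 and 10.78 in CKO-labelled, 10.50, 10.23 and 10.56 in double heterozygous, and 10.30, 10.07 and 10.10 in control arrays. CKO-labelled and control arrays did not overlap, while double heterozygous arrays overlapped both. The difference was 0.56 (SE 0.110, limma adjusted p = 0.0213), or 1.47-fold. A second probe set was also higher (0.36, adjusted p = 0.577) and the other one, not above background, gave -0.16. The call was lost without any 1 control array or without CKO replicate 5, where the difference was 0.51 to 0.63, and under the mean of its probe sets the difference was 0.25.

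The other calcium channel subunits gave no call. Cacna1d was 5.73, 5.98, 5.46, 5.73 and 5.76 in CKO-labelled, 6.24, 6.24 and 6.18 in double heterozygous, and 6.30, 6.25 and 6.13 in control arrays. The CKO-labelled arrays lay below all 6 others, yet the difference of -0.49 (SE 0.136) missed the threshold with an adjusted p of 0.0968, and -0.48 against double heterozygous gave 0.165. Without CKO replicate 2 the same gene was called at -0.55. Cacna1c was 7.86, 8.13, 7.81, 8.34 and 8.11 in CKO-labelled, 8.02, 7.84 and 7.68 in double heterozygous, and 7.69, 7.81 and 7.73 in control arrays. Its CKO-labelled values touched but did not overlap the control range (0.31, adjusted p = 0.305). Cacna1h gave 0.19 (adjusted p = 0.457), also without overlap. For Cacnb2, which binds the L-type pore, the difference was 0.04 with a 95% interval of -0.19 to 0.28.

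Kcnk3 encodes TASK-1, an acid-sensitive background potassium channel. Its signal was 6.65, 7.64, 6.88, 6.80 and 6.95 in CKO-labelled, 6.10, 6.26 and 6.08 in double heterozygous, and 6.31, 6.22 and 6.11 in control arrays. All 5 CKO-labelled arrays lay above the 6 others, whose groups overlapped each other, and CKO replicate 2 was the highest. The difference was 0.77 (SE 0.181, adjusted p = 0.0499) against control and 0.84 (adjusted p = 0.0654) against double heterozygous. Its next probe set gave 0.93 (SE 0.166, adjusted p = 0.0111) but was not above background in controls, and all 3 probe sets had a higher mean. With so narrow a margin the call was lost without any 1 control or double heterozygous array or without CKO replicate 4 or 5, while the difference stayed between 0.60 and 0.86 with each array left out in turn. It was 0.60 without CKO replicate 2, the array with the largest 3′-to-5′ actin difference (1.0 log2, against 0.295 to 0.450 on the other 10).

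Among the other background channels no call was made, and 2 had CKO-labelled arrays wholly below the controls. Kcnk6 (TWIK-2) was 6.02, 6.06, 5.66, 5.94 and 5.94 in CKO-labelled, 6.10, 6.44 and 6.21 in double heterozygous, and 6.26, 6.28 and 6.50 in control arrays (difference -0.43, SE 0.139, adjusted p = 0.166). Kcnk2 (TREK-1), a stretch-sensitive channel, was 5.09, 5.30, 5.08, 5.30 and 5.45 in CKO-labelled, against 5.48, 5.89 and 5.41 in double heterozygous and 5.78, 5.61 and 5.50 in control arrays (-0.39, adjusted p = 0.292). Kcnk5, Kcnk13 and Kcnk15 differed by 0.22, 0.01 and 0.19. Neither direction was shared by the family, with 6 of its 12 genes higher and 6 lower.

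Kcnq1ot1 is a long non-coding RNA transcribed antisense from within Kcnq1, made from the paternal chromosome and known to silence neighbouring imprinted genes. Its signal was 7.63, 8.65, 8.24, 8.53 and 8.94 in CKO-labelled, 7.79, 7.51 and 8.04 in double heterozygous, and 7.28, 7.25 and 7.74 in control arrays. CKO replicate 1 lay within the control range and the other 4 above it. The difference was 0.98 (SE 0.228, limma adjusted p = 0.0483). All 6 probe sets were higher in CKO-labelled arrays, 3 of them above background and 1 called. It stayed called without CKO replicate 1 or 3 and was lost with any other single array left out, when the difference was 0.84 to 1.14. Kcnq1 itself, not above background, differed by -0.13. Which strand these probe sets read is not stated in the files used, so signal of the antisense RNA and of Kcnq1 introns cannot be told apart.

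The probe sets of Kcnj3, of the acetylcholine-gated pair, differed among themselves. Kcnj3, by its brightest probe set, was 5.26, 5.41, 5.51, 5.36 and 5.46 in CKO-labelled, 5.57, 5.03 and 5.62 in double heterozygous, and 5.69, 5.67 and 5.99 in control arrays. CKO-labelled arrays lay below all controls, but the difference of -0.39 was not called (adjusted p = 0.307). Its second probe set was 4.81, 4.72, 4.67, 4.79 and 4.01 in CKO-labelled, against 5.12, 5.64 and 4.58 in double heterozygous and 5.95, 5.74 and 5.59 in control arrays, and was called at -1.16 (SE 0.231, limma adjusted p = 0.0220). It was above background in controls, but every CKO-labelled value lay below its own array's limit. Another was called at -0.80 (SE 0.175, limma adjusted p = 0.0357), while the last gave 0.21, and neither of these was above background in controls. The mean of all 4 was called at -0.53 (adjusted p = 0.00763). Its partner Kcnj5 differed by -0.30 (adjusted p = 0.360). Counted by probe set, 5 of 254 were called higher and 3 lower, in 6 genes, against 0.837% higher and 0.566% lower over all 45037 probe sets. The gene that the brightest-probe-set rule also leaves out is Kcna1, with 1 probe set at 0.80 (limma adjusted p = 0.0383). That probe set averaged 4.09 in control arrays and was not above background there.

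**Figure D4:**
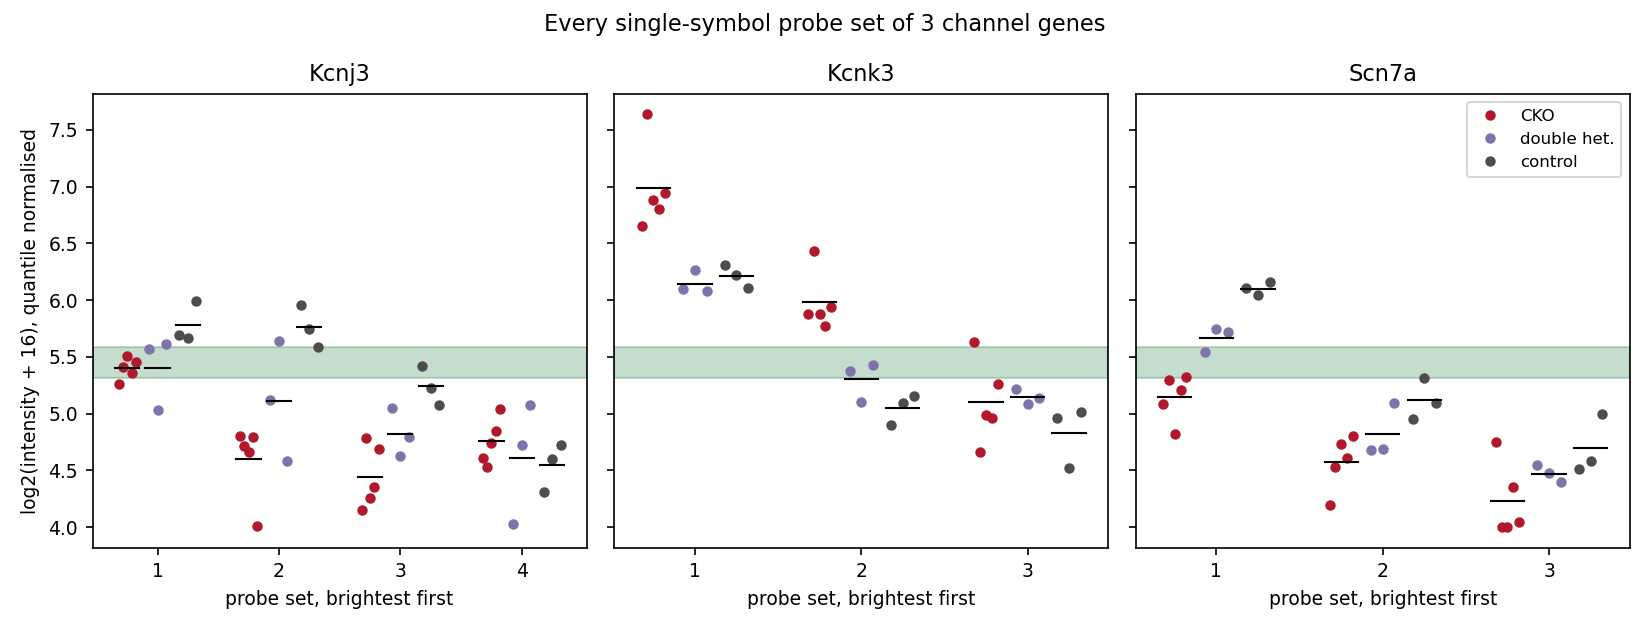
Every probe set of Kcnj3, Kcnk3 and Scn7a on each array, in log2(intensity + 16), numbered from the brightest, with CKO-labelled, double heterozygous and control arrays from left to right and black lines at the group means. The green band spans the control background limits, and 3 of 4 Kcnj3 probe sets, 0 of 3 Kcnk3 and 3 of 3 Scn7a probe sets had a lower mean in CKO-labelled arrays.

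Most repolarising and pacemaker genes gave small differences with intervals on both sides of 0. The difference was 0.06 for Kcnh2 (95% interval -0.20 to 0.32), 0.06 for Kcnj11 (-0.16 to 0.28) and -0.15 for Kcna5 (-0.43 to 0.13). Hcn2 gave -0.11 (-0.39 to 0.17) and Hcn3 0.04 (-0.38 to 0.47). Changes of a size within these intervals are not excluded. Kcna7 gave -0.30 (adjusted p = 0.300), Kcnq5 0.26, Kcng2 -0.19, Kcnip1 0.22, Kcnmb1 0.08, Scn2b -0.17 and Scn4b -0.17. Kcnmb4, an auxiliary subunit of the large-conductance calcium-activated channel, named here after its values were seen, gave -0.54 (SE 0.152, adjusted p = 0.103), and was called without CKO replicate 2 (-0.65, adjusted p = 0.0184). Kcne1, which slows Kcnq1 channels, gave -0.36 (adjusted p = 0.300).

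Groups that did not overlap were counted too. CKO-labelled arrays all lay above the controls for 8 channel genes, against a background of 4.7% of all genes, and all below for 9, against 7.55%. Of the 38 genes above background, 4 were wholly higher (Cacna2d2, Kcnk3, Cacna1c and Cacna1h) and 6 wholly lower (Scn7a, Cacna1d, Kcnk6, Kcnk2, Kcnj3 and Kcne1). The shares above are over all genes, and none was counted over the genes above background. The 38 were also chosen by high signal on the control arrays, which can favour genes that are lower in CKO-labelled arrays. The 4 and 6 therefore cannot show an excess in either direction. The widest difference among all 121 belonged to Kcne3, an auxiliary subunit of Kv channels, named here after its values were seen: it was 5.35, 5.97, 5.30, 7.09 and 6.01 in CKO-labelled, 5.12, 5.20 and 4.91 in double heterozygous, and 4.80, 5.24 and 4.78 in control arrays. It was not above background in control heart, its CKO-labelled values ranged widely, and the difference of 1.01 (SE 0.308) was not called (adjusted p = 0.139).

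CKO-labelled and double heterozygous hearts differ in the second floxed Gata4 allele. Double heterozygous and control hearts differ in the Nkx2-5 Cre allele, which takes 1 Nkx2-5 copy and can also delete the 1 floxed Gata4 copy, so the dose of the 2 genes cannot be told apart there. CKO-labelled against double heterozygous called 0 channel genes in limma, against 0.55% of all genes, and also 0 in the analysis without moderated variance. At an unadjusted limma p under 0.05 there were 16 of 121 channel genes, against 2419 of all 18193 genes. The lowest adjusted p was that of Kcnk3, 0.0654, and Kcnk3 was called without CKO replicate 1, 2 or 3 in turn, the count then being 1. Cacna1d and Scn7a followed with -0.48 and -0.52. Double heterozygous against control called 0 channel genes, against 0% of all genes, and 0 without moderated variance. At an unadjusted limma p under 0.05 there were 8 of 121 channel genes, against 530 of all 18193 genes. In that comparison Scn7a was lower by -0.43 and Cacna2d2 higher by 0.27, each with an adjusted p of 0.999924, while Kcnk3 gave -0.07. The test over all 3 groups called 2 channel genes, Scn7a (adjusted p = 0.00959) and Kcnk3 (0.0404), against 1.47% of all genes. That count was 0 without control replicate 1 or 3, 1 without control replicate 2, any 1 double heterozygous array or CKO replicate 4 or 5, 4 without CKO replicate 1 and 5 without CKO replicate 2. These comparisons share arrays, so each gene's values above are the same measurements seen from different sides.

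Proteins that bind, traffic or regulate these channels were read from a separate list of 38 genes, of which 31 were measured and 21 were above background. Between CKO-labelled and control arrays 2 of the 31 were called lower and 1 was called higher, against 0.841% and 1.25% of all genes. In this comparison 10 of the 31 had an unadjusted limma p under 0.05, against 2817 of all 18193 genes. Abcc9, the SUR2 subunit that joins the Kcnj11 pore in the ATP-sensitive channel of heart and vessels, was 8.71, 8.49, 8.68, 8.82 and 8.54 in CKO-labelled, 8.88, 9.16 and 8.76 in double heterozygous, and 9.34 on each of the 3 control arrays. CKO-labelled and double heterozygous arrays all lay below the controls. The difference was -0.69 (SE 0.103, limma adjusted p = 0.00290), all 3 Abcc9 probe sets were called lower (-0.97, -0.82 and -0.69), and the call was kept under all 24 alternatives. Its pore partner Kcnj11 was 9.43, 9.05, 9.30, 9.32 and 9.47 in CKO-labelled, 9.35, 9.06 and 9.30 in double heterozygous, and 9.14, 9.32 and 9.29 in control arrays, with full overlap. The alternative subunit Abcc8 gave 0.30 (adjusted p = 0.640). Kcnj8, the other pore known to pair with SUR2, was not above background (0.03).

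The other 2 called partners are linked to sodium current or to the junctions between heart cells. Gpd1l, a dehydrogenase-like protein whose human gene is tied to sodium current in heart cells, was 7.33, 7.64, 7.08, 7.12 and 7.31 in CKO-labelled, 7.87, 7.74 and 7.64 in double heterozygous, and 7.78, 7.88 and 7.96 in control arrays (-0.58, SE 0.127, adjusted p = 0.0374). Tmem65, a membrane protein described at the intercalated disc, was 8.61, 8.74, 8.66, 8.92 and 8.78 in CKO-labelled, 8.70, 8.53 and 8.61 in double heterozygous, and 8.26, 8.36 and 8.38 in control arrays (0.41, SE 0.0924, adjusted p = 0.0404). Neither set of CKO-labelled arrays overlapped the controls. Both calls were lost without any 1 control or double heterozygous array or without CKO replicate 4 or 5, when Gpd1l gave -0.62 to -0.53 and Tmem65 0.36 to 0.43. Rangrf, which helps carry sodium channels to the membrane, gave -0.49 (adjusted p = 0.0984) with no overlap. Fgf12 and Fgf13, which bind the tails of sodium channels, differed by 0.06 and -0.09. In limma's fit 0 partners were called for CKO-labelled against double heterozygous arrays and 0 for double heterozygous against control, as without moderated variance. At an unadjusted limma p under 0.05 there were 6 and 2 of the 31 partners, against 2419 and 530 of all 18193 genes. The called count for CKO-labelled against double heterozygous was 1 without CKO replicate 2.

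**Figure D5:**
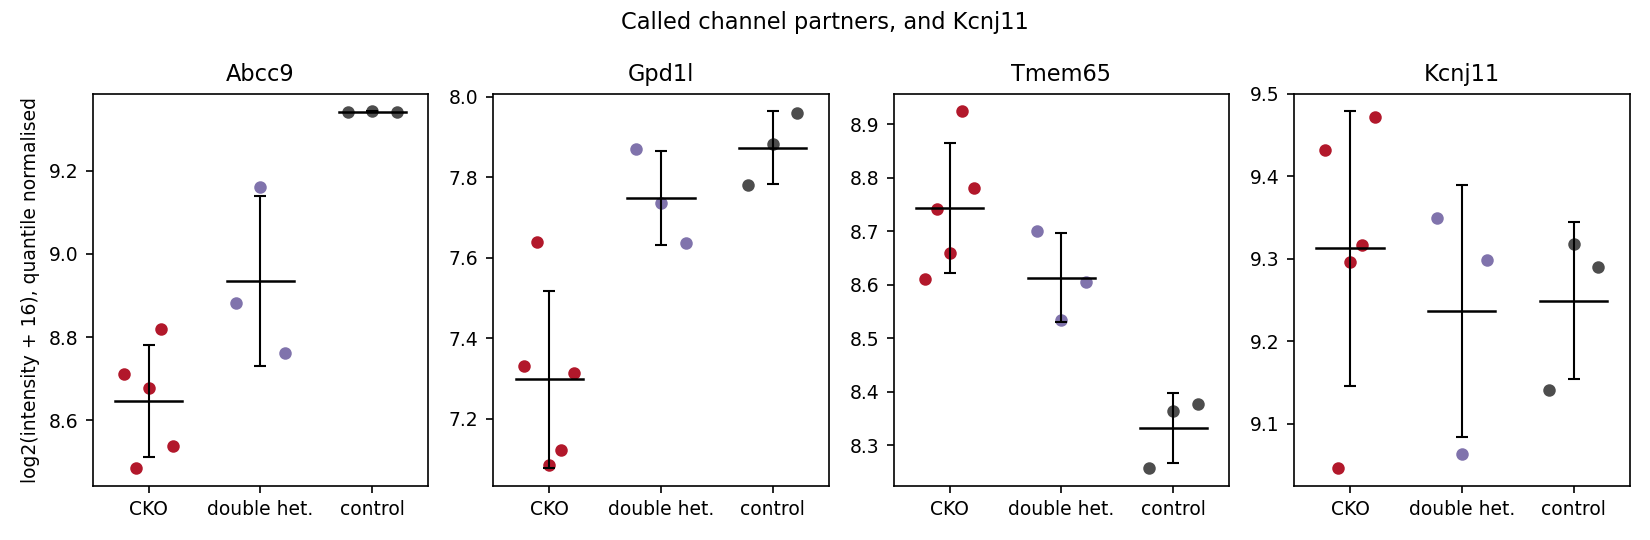
Signal of the 3 called partner genes and of Kcnj11 on each array, in log2(intensity + 16), with group means and SD as black bars and CKO-labelled, double heterozygous and control groups from left to right. Abcc9 reads 9.34 on all 3 control arrays and 8.49 to 8.82 on the CKO-labelled arrays, while Kcnj11 overlaps in all 3 groups.

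The tissue and the arrays were checked on a few values. All 10 cardiomyocyte markers were above background, with summed intensities of 61073 to 66669 in CKO-labelled, 61819 to 64015 in double heterozygous and 62606 to 63459 in control arrays, and 1 of them, Myh7, was called higher (0.27, limma adjusted p = 0.0154). Quantile normalisation gives all arrays the same set of values, and these markers lie near its top. Their sums could therefore hardly show a change in cardiomyocyte content. Sums for smooth muscle and pericyte markers were 12208 to 13804 in CKO-labelled, 12892 to 13321 in double heterozygous and 11740 to 12505 in control arrays, with 1 of 7 called higher. Sums for endothelial markers were 2627 to 3101 in CKO-labelled, 2266 to 2348 in double heterozygous and 2346 to 2434 in control arrays, with 2 of 8 called higher and 1 lower. On the list of endodermal markers only the keratin genes Krt8 and Krt18 were called higher, 2 of 8. Sums were 2012 to 2614 in CKO-labelled, 1477 to 1852 in double heterozygous and 1325 to 1417 in control arrays. Only Epcam, Krt8 and Krt18 were above background, and Cdh1, Foxa2, Shh, Nkx2-1 and Foxa1 were not. These sums therefore mostly read the keratins and do not show a rise of endoderm. The part of these cells in the channel results was not tested. The mean deposited intensity was 117 on CKO replicate 3 and 166 to 176 on the other 10 arrays, and CKO replicates 2 and 3 had the lowest mean correlation with their own group, 0.967 and 0.965 against 0.977 to 0.988. Without these 2 arrays together, 6 channel genes were called against control and 3 against double heterozygous, while the share called over all genes was 4.23% and 2.14% (2.09% and 0.55% with all arrays).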

How the data were processed

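Pooled E9.5 hearts were measured on 11 arrays. The deposited values are linear probe-set intensities made by the authors with PLIER, per the submitters' processing notes; version, background correction and scaling: not given in the sources used here. Of 45101 probe sets, 64 controls were left out and 45037 tested. From the deposited intensities, log2(intensity + 16) was computed; because array medians spanned 0.465 (limit 0.2), values were quantile normalised. Fold changes on this scale understate those of dim genes. Symbols came from the platform annotation (34945 probe sets with 1 symbol, 932 with several, 9160 with none). All 3 groups entered 1 limma fit (version 3.58.1, R 4.3.3; trend on intensity; residual degrees of freedom 8) with Benjamini-Hochberg adjustment over all probe sets per comparison; called means an adjusted p under 0.05. The scripts were tested on simulated data. All deposited sample columns were used. Files held no detection calls, so the number of arrays and the sensory receptor limit bound the precision.

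Genes were named by rule: those called; the 15 members with the highest control signal; measured cardiac channel genes; up to 6 per direction without overlap; Gata4 and Nkx2-5; and called partners or the 3 with the lowest p. Members and lists were chosen with earlier results of these data known. Alternatives varied offset, scaling, filter, trend, groups fitted, array weights, probe-set choice, block, variance moderation and arrays left out. A background limit on probe-set means per gene was added after seeing the data.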

Additional observations from a re-analysis of the deposited data

How the results depend on the processing

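The count of 4 channel genes called between CKO-labelled and control arrays was 2 with an offset of 1, 2 with 64, 0 on the deposited scale, 1 with median centring, 1 without the intensity trend, 2 with only those groups fitted, 8 with array weights and 1 without moderated variance; it ran from 1 to 5 with each array left out. Replicate numbers did not pair the arrays: 1 of 9 same-numbered pairs had deviations correlated above 0.1 (-0.0557 to 0.150), and with the replicate block the count was 1 (Scn7a), that of the 3-group test 0 and that of partners 1. The 3-group count of 2 was 1 with offset 64, 0 as deposited, 1 with median centring, 1 without trend, 8 with weights, 4 on the mean of probe sets, 1 without moderation, 4 without CKO replicates 2 and 3, and 0 to 5 with each array left out. The count of 0 against double heterozygous was 1 without dim probe sets, 1 with weights, 3 without CKO replicates 2 and 3, and 0 to 1 with each array left out. The 3 partners were 1 as deposited, 1 with median centring, 1 without trend, 1 with only those groups, 6 with weights, 1 without moderation, 5 without CKO replicates 2 and 3, and 1 to 4 with each array left out; against double heterozygous their count of 0 was 1 with weights, 1 without those replicates, and 0 to 1. Leaving out dim probe sets, which leaves fewer genes, gave 21, 19 and 17 genes with a higher mean for CKO-labelled against control, CKO-labelled against double heterozygous, and double heterozygous against control (63, 65 and 55 before). Genes above background numbered 23 at the 99th percentile and 25 on the mean of probe sets, a setting chosen after seeing the data. The cause of these moves was not tested beyond the fewer genes or arrays. Scn7a was called under 23 of 24 alternatives, Cacna2d2 under 14, Kcnk3 under 8 and Kcnq1ot1 under 5, all keeping their direction. Of 33 other named channel genes, 16 changed sign under at least 1 alternative and 3 were called under at least 1 (Kcnj3, Cacna1d and Kcnk6). Among genes named after their values were seen, Kcnmb4 was called with array weights, without CKO replicate 2 and without CKO replicates 2 and 3, and Kcne3 with weights and without replicates 2 and 3. The share of all genes called against control moved too, from 2.09% to 7.15% with weights, 1.13% with median centring and 0.308% as deposited. Probe brightness near the limit bounds what can be seen for the 83 genes not above background.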
